A study of Mus musculus with 8 samples.

Results

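The 46 genes described here encode the general machinery of RNA decay in the mouse, together with core factors of nonsense-mediated decay. They were listed by name, for their function. They comprised 10 subunits of the CCR4-NOT deadenylase, 3 genes of the PAN2-PAN3 and PARN deadenylases, 14 decapping genes, 2 5'-3' exonucleases, 8 subunits of the exosome core, 4 nucleases that join the exosome or belong to the DIS3 family, and 5 genes of nonsense-mediated decay. All 46 were found among the 55401 genes counted, and all 46 passed the filter on low counts, which left 17532 genes to be tested.

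RNA was sequenced from mouse embryonic stem cells (ESCs) to ask how transcript levels respond when a coactivator complex is lost. The labels gave 2 Control libraries, 3 libraries labelled Zzz3 auxin and 3 labelled Yeats2 auxin. In the auxin libraries, the cells carried ZZZ3 or YEATS2, both subunits of the histone acetyltransferase complex ATAC, as fusions to an auxin-inducible degron (AID), and auxin (500 µM) was applied over 24 h. The degron leads to destruction of the tagged protein through Tir1, a plant F-box protein, for which the growth protocol of all 8 libraries names selection, and which a Pgk promoter drives in the Tir1 line of the methods. The cells of all groups grew without feeders in serum with leukemia inhibitory factor and inhibitors of MEK and GSK3. The labels give neither the line nor the treatment of the controls. For its estimates of RNA metabolism, the study's supplement sets DMSO, the solvent, against auxin within each AID line, without saying which line the 2 control libraries came from, and the number of clones is not given in the sources used here. So loss of the protein, exposure to auxin and any difference of line cannot be told apart in a comparison with control. In bulk RNA, fewer cells of a type and less RNA per cell cannot be told apart either.

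Between 14315120 reads (the third Zzz3 auxin library) and 27884704 reads of a library fell on genes, and the 46 genes had 97 to 30904 reads each. Levels are given as CPM, the reads of a gene brought to a common library size, with scaling factors from the TMM method of edgeR. *Zzz3* mRNA stood at 77.5 to 112 CPM in Zzz3 auxin and at 182 to 191 CPM in the other groups, while *Yeats2* mRNA in Yeats2 auxin (43.7 to 103 CPM) overlapped the controls (90.9 and 95.8 CPM). These mRNA levels do not measure the degron, which acts on the protein. Summed naive pluripotency markers reached 4725 to 5571 CPM, against 1.32 to 2.23 CPM for fibroblast markers, 5 of 6 of which stayed below 1 CPM in every library. Neuroectoderm markers summed to 5.49 to 6.96 CPM in the controls, 4.03 to 6.36 in Zzz3 auxin and 2.53 to 3.71 in Yeats2 auxin, and mesendoderm and endoderm markers to 12.8 to 22.7 CPM over the 8 libraries. Their part in the results was not tested. Libraries differed in how GC-rich and GC-poor genes were represented: the difference between both, on a log2 scale over all genes tested, was -0.59 in the first control and 0.43 in the third Zzz3 auxin library, and -0.08 to 0.15 in the other 6.

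An mRNA usually starts to decay when its poly(A) tail is shortened. CCR4-NOT and PAN2-PAN3 remove the tail, the DCP2 complex then removes the cap with the help of DDX6, PATL1, the EDC proteins and the LSM1-7 ring, and XRN1 degrades the body from the 5' end, while the exosome degrades RNA from the 3' end. Nonsense-mediated decay directs transcripts with premature stop codons into the same routes. Since RNA levels depend on both synthesis and decay, a change in this machinery would bear on how transcript levels are set. Only mRNA levels of these genes were measured here, not proteins or decay rates.

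Most of these genes were well expressed in ESCs. Per kilobase (kb) of annotated exon, their median level in the controls was 17.7 CPM per kb, against 3.24 for all genes tested, and 44 of the 46 lay above the latter. The range was 105-fold. *Xrn2*, the nuclear 5'-3' exonuclease, led with 104 ± 2.59 CPM per kb (SD, n = 2 controls), followed by *Dcp2*, the decapping enzyme, with 100 ± 6.71, and *Cnot1*, the scaffold of CCR4-NOT, with 62.5 ± 7.37. *Dcp1b* was lowest at 0.993 ± 0.18 CPM per kb, below *Dis3l2* at 2.57 ± 0.335 and *Dis3l* at 3.68 ± 0.0998. In CPM, *Xrn2* had 421 and 407 in the controls, 387, 408 and 364 in the Zzz3 auxin libraries and 418, 383 and 408 in the Yeats2 auxin libraries. *Dcp2* had 914 and 831, then 722, 828 and 615, then 832, 839 and 803 CPM in the same order of libraries, and *Cnot1* 1162 and 983, then 1123, 1133 and 671, then 1124, 1038 and 1123 CPM. The third Zzz3 auxin library was the lowest for all 3 genes. At the other end, *Dis3l* had 19.7 and 20.5, then 20, 22.8 and 20.6, then 22.8, 22.1 and 20.4 CPM, and *Dcp1b* 7.1 and 5.49, then 7.33, 5.42 and 6.49, then 5.53, 4.6 and 6.29 CPM, with overlapping groups for both. Most neighbors in the order per length could not be separated, since 33 of 45 neighboring pairs overlapped in the controls and 42 of 45 over the 8 libraries. The steps that stayed clear in all 8 libraries were those from *Dcp2* to *Cnot1*, from *Lsm7* to *Cnot6l* and from *Dis3l2* to *Dcp1b*. With the longest transcript as length, however, *Cnot1* (128 CPM per kb) stood above *Dcp2* (101), so the first of these steps turned with the length used. Subunits of a single complex also differed per length. In the exosome core, *Exosc2* (35.4 CPM per kb), *Exosc3* (35.2) and *Exosc8* (33.5) stood at the top and *Exosc5* (6.79) at the bottom. Within the LSM ring, the order ran from *Lsm4* (61.4 CPM per kb) and *Lsm3* (34.3) down to *Lsm1* (9.23) and *Lsm7* (5.97).

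**Figure D1:**
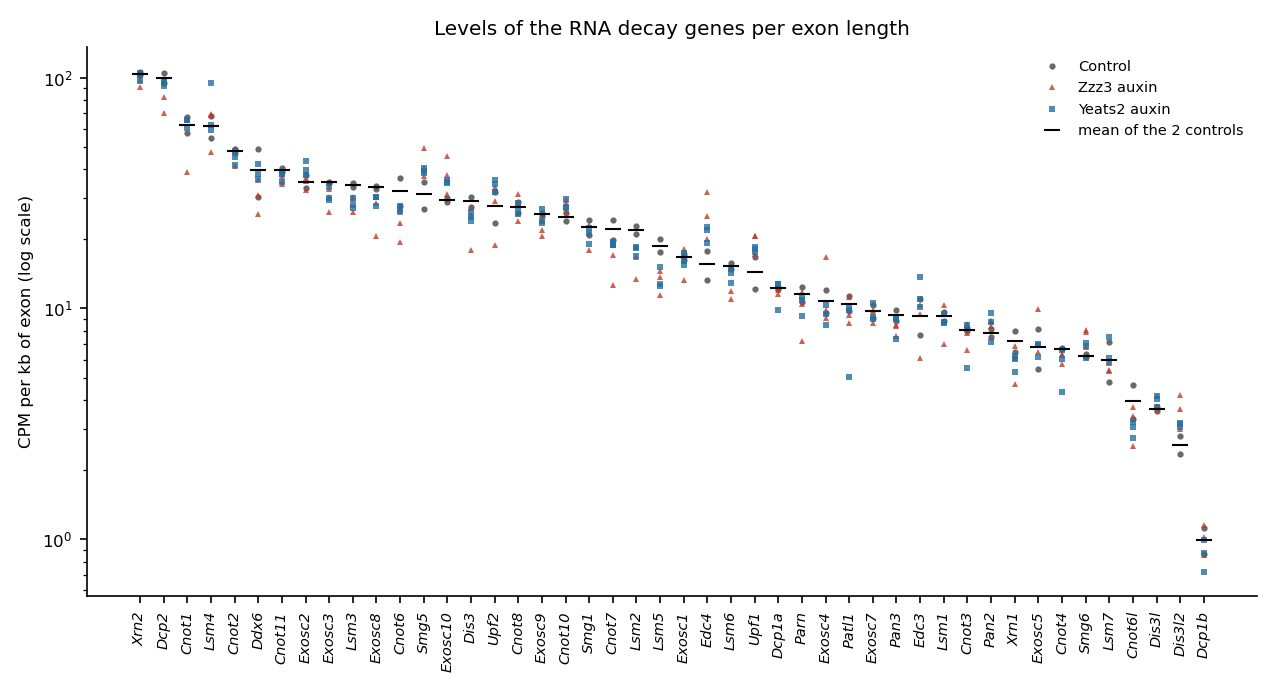
Level of each of the 46 genes in CPM per kb of exon (log axis) in the 2 Control, 3 Zzz3 auxin and 3 Yeats2 auxin libraries, ordered by the mean of the controls (black bars). The order runs from *Xrn2* at 104 to *Dcp1b* at 0.993 CPM per kb, and the spread between libraries of a gene is small beside that range.

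The promoters at hand for these genes were rich in GC and CpG. RefSeq promoters (GRCm38.p6, 300 bases each) were found for 38 of the 46 genes, with 48 promoters in all, since some genes had several. Those without a promoter included *Dcp2*, *Cnot1*, *Lsm4* and *Ddx6*, which ranked 2, 3, 4 and 6 per length in the controls. Their median GC content was 64.8%, against 60.3% for 14444 promoters of genes tested, and they held a median of 26.5 CpG dinucleotides, against 19. The letters TATAAA, on either strand, were in 0 of the 48 promoters and in 7.37% of those of genes tested. CCAAT was in 27.1% against 38%, GGGCGG (a GC box) in 75% against 60.5%, and CCGGAAG (an ETS core) in 27.1% against 16.4%. These matches are a description of the sequence and were not tested. The promoters of the genes at both ends of the order above, and of *Edc4*, the member with the largest fold change below, are shown for comparison, with CCGGAAG on either strand in capitals.
Xrn2: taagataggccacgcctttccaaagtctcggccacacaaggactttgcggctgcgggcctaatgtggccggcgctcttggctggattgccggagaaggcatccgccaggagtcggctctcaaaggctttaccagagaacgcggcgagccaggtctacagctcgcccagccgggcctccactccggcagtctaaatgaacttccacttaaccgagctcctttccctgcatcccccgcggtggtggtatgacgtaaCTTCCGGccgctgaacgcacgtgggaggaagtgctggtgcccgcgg
Dcp1b: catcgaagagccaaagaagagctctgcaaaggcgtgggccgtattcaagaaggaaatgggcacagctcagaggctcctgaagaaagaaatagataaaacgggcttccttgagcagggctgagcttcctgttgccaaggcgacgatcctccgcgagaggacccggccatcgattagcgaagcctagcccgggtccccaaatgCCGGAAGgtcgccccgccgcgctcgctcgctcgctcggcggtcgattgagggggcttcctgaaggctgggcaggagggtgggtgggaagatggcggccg
Edc4: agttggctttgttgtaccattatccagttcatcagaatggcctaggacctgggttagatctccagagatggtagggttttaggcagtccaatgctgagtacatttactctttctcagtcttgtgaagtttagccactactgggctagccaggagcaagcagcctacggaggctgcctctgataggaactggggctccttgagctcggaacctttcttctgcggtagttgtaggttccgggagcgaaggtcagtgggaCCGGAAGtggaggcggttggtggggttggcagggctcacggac
The 3 windows are chr2:147012749-147013048, chr6:119175003-119175302 and chr8:105880631-105880930, all on the plus strand. Each held 1 ETS core and no TATAAA or GC box, so the highest and the lowest member per length did not differ in these letters. *Xrn2* and *Dcp1b* also matched in GC content (62% and 61.7%) and CpG number (25 each), while *Edc4* had a GC content of 53.7% and 8 CpG.

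Within families of related genes, 1 paralog usually made up most of the RNA. As a share of the family's CPM per kb, the CCR4-type deadenylase *Cnot6* took 89.1% ± 0.383 (SD, n = 2) in the controls and *Cnot6l* the remaining 10.9%. *Dcp1a* took 92.5% ± 1.36 over *Dcp1b*, and the nuclear exonuclease *Xrn2* took 93.5% ± 0.759 over the cytoplasmic *Xrn1*. In all 3 families the leading paralog was the same in every library, with 86.2% as its lowest share.
The CAF1-type deadenylases were closer to balance. *Cnot7* made up 48.1% and 40.7% of the pair in the controls. Its share was 35.3%, 40% and 34.5% in the Zzz3 auxin libraries and 41.1%, 39.8% and 43.1% in the Yeats2 auxin libraries. The 3 Zzz3 auxin libraries lay below both controls. Among the DIS3 family, *Dis3*, the nuclease of the nuclear exosome, had 82.3% ± 2.05 in the controls, 75.3% ± 5.39 (n = 3) in Zzz3 auxin and 77.8% ± 0.218 (n = 3) in Yeats2 auxin. *Dis3l2*, which degrades uridylated RNA without the exosome, had 6.39% and 8.21% in the controls, against 10.6%, 9.26% and 16.3% with ZZZ3 degraded and 9.46%, 9.84% and 9.97% with YEATS2 degraded. All 6 auxin libraries thus lay above both controls for *Dis3l2* and below both for *Dis3*. As shares of the same family total, these are not separate observations. No test was run on these shares.

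**Figure D2:**
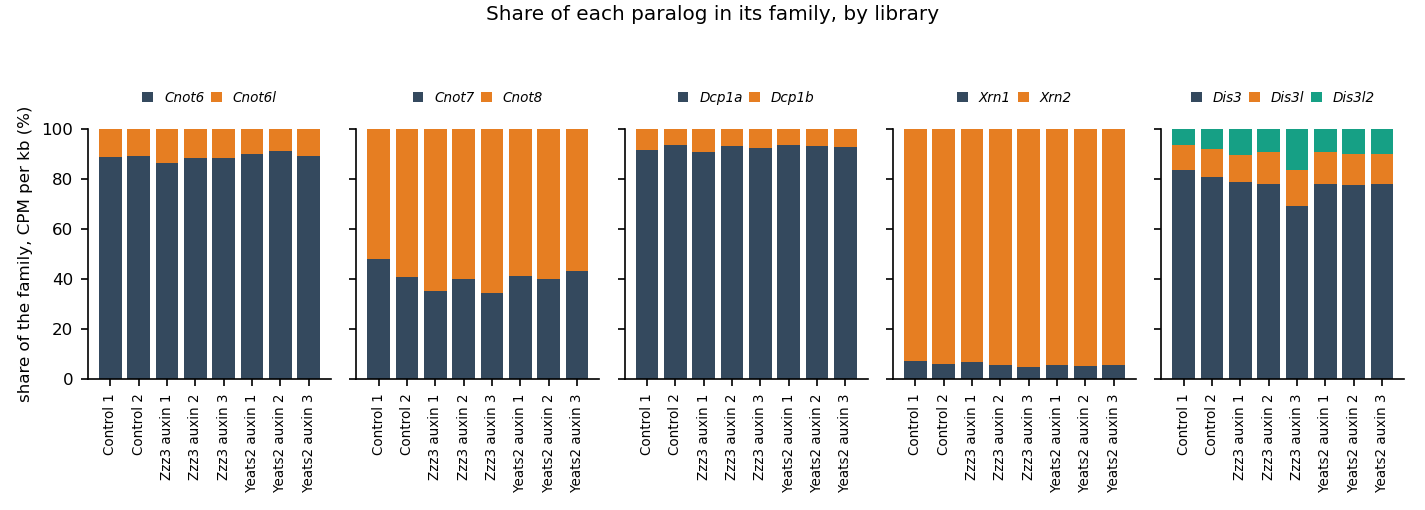
Share of each paralog in the summed CPM per kb of its family, in percent, with 1 bar per library. *Cnot6*, *Dcp1a*, *Xrn2* and *Dis3* held most of their family in all 8 libraries, while *Cnot7* and *Cnot8* were near balance.

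With ZZZ3 degraded, no RNA decay gene passed the test against control. At an adjusted p under 0.05 in edgeR's quasi-likelihood test, 0 of the 46 were called, against 0.753% of all genes tested (132 of 17532). At an unadjusted p under 0.05 there were 12 of 46 (26.1%), against 21.7% of all genes, and of these 6 were higher (11.6% of all genes) and 6 lower (10.1%). The median log2 fold change (FC) was -0.10, with a range of -0.50 to 0.72, against 0.01 for all genes tested. Of the 46, 14 had a log2 FC over 0, against 51.1% of all genes. The groups of libraries did not overlap for 22 genes (47.8%, against 35.8% of all genes), of which 14 were lower (18.9% of all genes) and 8 higher (16.8%) in Zzz3 auxin. The 95% interval lay within a 2-fold difference either way for 45 of the 46, the exception being *Edc4*, against 62.9% of all genes. Larger differences thus lay outside the interval of nearly every member. The median standard error was 0.149 for the members and 0.22 for all genes, so these shares are not like for like.

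In CCR4-NOT, the median log2 FC was -0.13, and 2 of the 10 genes had a value over 0. *Cnot6*, a catalytic subunit, stood at 244 and 184 CPM in the controls, 155, 173 and 129 CPM in Zzz3 auxin, and 178, 184 and 175 CPM in Yeats2 auxin. Its Zzz3 auxin libraries lay below both controls, with a log2 FC of -0.49 (standard error (SE) 0.15, 95% interval -0.81 to -0.16, adjusted p = 0.109). *Cnot7*, the catalytic subunit of the other type, had 140 and 115 CPM in the controls, 99.5, 110 and 73.6 CPM in Zzz3 auxin, and 110, 110 and 113 CPM in Yeats2 auxin, and its log2 FC was -0.44 (SE 0.16, adjusted p = 0.149). The third Zzz3 auxin library was the lowest of all 8 for both genes. Their paralogs *Cnot6l* (-0.30, interval -0.71 to 0.11) and *Cnot8* (0.03, interval -0.27 to 0.32) were not past an unadjusted p of 0.05. The scaffold *Cnot1* (-0.14), *Cnot2* (-0.06), *Cnot3* (-0.07), the ubiquitin ligase *Cnot4* (-0.13) and *Cnot11* (-0.15) also had values under 0, and *Cnot10* had 0.18. For the other deadenylases, the log2 FC was 0.15 for *Pan2*, -0.19 for its partner *Pan3* and -0.22 for *Parn*.

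The decapping genes held both the highest and the lowest fold change. *Edc4* (ENSMUSG00000036270, chr8:105880881-105894908 on the plus strand of GRCm38), a scaffold that joins DCP2 to its activators, stood at 73.2 and 97.2 CPM in the controls, 138, 110 and 175 CPM in Zzz3 auxin, and 124, 106 and 120 CPM in Yeats2 auxin. All 6 auxin libraries lay above both controls. Part of its exon sequence is shared with *Nrn1l* on the same strand, where reads are left unassigned. The log2 FC for Zzz3 auxin was 0.72 (SE 0.19, interval 0.31 to 1.14, adjusted p = 0.081). DESeq2, the test of the study, gave 0.73 with an adjusted p of 0.0117, and over the 14 alternatives tried the adjusted p ran from 0.000139 to 0.581. The LSM ring, which binds shortened tails and calls in decapping, lay mostly on the other side. *Lsm5* had 13.9 and 15.8 CPM in the controls, 9.06, 11.5 and 10.8 CPM in Zzz3 auxin, and 9.9, 12 and 10.1 CPM in Yeats2 auxin, with a log2 FC of -0.50 (SE 0.17, adjusted p = 0.137). *Lsm2* had 71.5 and 66.1 CPM in the controls, 52.8, 58.5 and 42.4 CPM in Zzz3 auxin, and 57.9, 53.4 and 58 CPM in Yeats2 auxin, with a log2 FC of -0.42 (SE 0.14, adjusted p = 0.126). For both genes, the 6 auxin libraries lay below both controls. The same was true of *Lsm3*, at 92.6 and 96 CPM in the controls, 72.2, 81.7 and 83.3 CPM in Zzz3 auxin, and 74.8, 82.5 and 77.3 CPM in Yeats2 auxin (log2 FC -0.26 in Zzz3 auxin, adjusted p = 0.223). Part of the *Lsm3* exon sequence is shared with *AC161456.1* on the same strand, where reads are likewise left unassigned. *Lsm6* (-0.29), *Lsm1* (-0.09), *Lsm7* (-0.11) and *Lsm4* (0.02) had intervals that held 0. So had *Dcp2* (-0.27, interval -0.56 to 0.01), *Dcp1a* (-0.04), *Dcp1b* (0.03), *Edc3* (-0.10), *Patl1* (-0.11) and the helicase gene *Ddx6* (-0.36, interval -0.79 to 0.06). *Ddx6* varied within the controls alone, at 396 and 244 CPM.

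Among nucleases that act on the RNA body, the direction differed by gene. *Xrn1* (-0.30) and *Xrn2* (-0.10) had intervals that held 0. The exosome core had a median of -0.05 over 8 genes. *Exosc8*, at 143 and 147 CPM in the controls, 124, 131 and 88.8 CPM in Zzz3 auxin, and 132, 132 and 120 CPM in Yeats2 auxin, had a log2 FC of -0.34 (SE 0.15, adjusted p = 0.226), which was -0.17 without the third Zzz3 auxin library and -0.14 with a correction for GC content and length. The other core genes ranged from -0.24 (*Exosc3*) to 0.20 (*Exosc5*), with *Exosc9* at -0.20, *Exosc1* and *Exosc7* at -0.05, *Exosc2* at -0.02 and *Exosc4* at 0.13. *Dis3l2* (ENSMUSG00000053333, chr1:86703808-87050095, plus strand) had 20.8 and 25 CPM in the controls, 32.7, 26.9 and 37.7 CPM in Zzz3 auxin, and 28.2, 28.3 and 27.2 CPM in Yeats2 auxin. Its 6 auxin libraries lay above both controls, with a log2 FC of 0.50 for Zzz3 auxin (SE 0.16, interval 0.14 to 0.86, adjusted p = 0.122). *Exosc10*, the nuclear exosome nuclease, had 104 and 108 CPM in the controls, 164, 136 and 113 CPM in Zzz3 auxin, and 127, 130 and 126 CPM in Yeats2 auxin (log2 FC 0.38, SE 0.14, adjusted p = 0.167). *Dis3* had -0.31 (interval -0.66 to 0.04) and *Dis3l* 0.07.

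Nonsense-mediated decay had the highest median of all roles, 0.29 over 5 genes. *Smg5*, an adaptor that recruits decay enzymes to UPF1, had 188 and 247 CPM in the controls, 282, 262 and 344 CPM in Zzz3 auxin, and 282, 275 and 268 CPM in Yeats2 auxin, with a log2 FC of 0.44 (SE 0.15, adjusted p = 0.128). *Upf1*, the central helicase, had 55.7 and 76.8 CPM in the controls, 94.9, 79.2 and 94.4 CPM in Zzz3 auxin, and 84.6, 80.6 and 82.9 CPM in Yeats2 auxin, with a log2 FC of 0.43 (SE 0.15, adjusted p = 0.136). The auxin libraries lay above both controls for both genes, with the first control lowest. *Smg6*, the endonuclease, had 53.5 and 52 CPM in the controls, 67.1, 57.5 and 68.5 CPM in Zzz3 auxin, and 58.1, 51.6 and 59.7 CPM in Yeats2 auxin (log2 FC 0.29, adjusted p = 0.22). *Upf2* (-0.02) and the kinase gene *Smg1* (-0.12) had intervals that held 0.

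**Figure D3:**
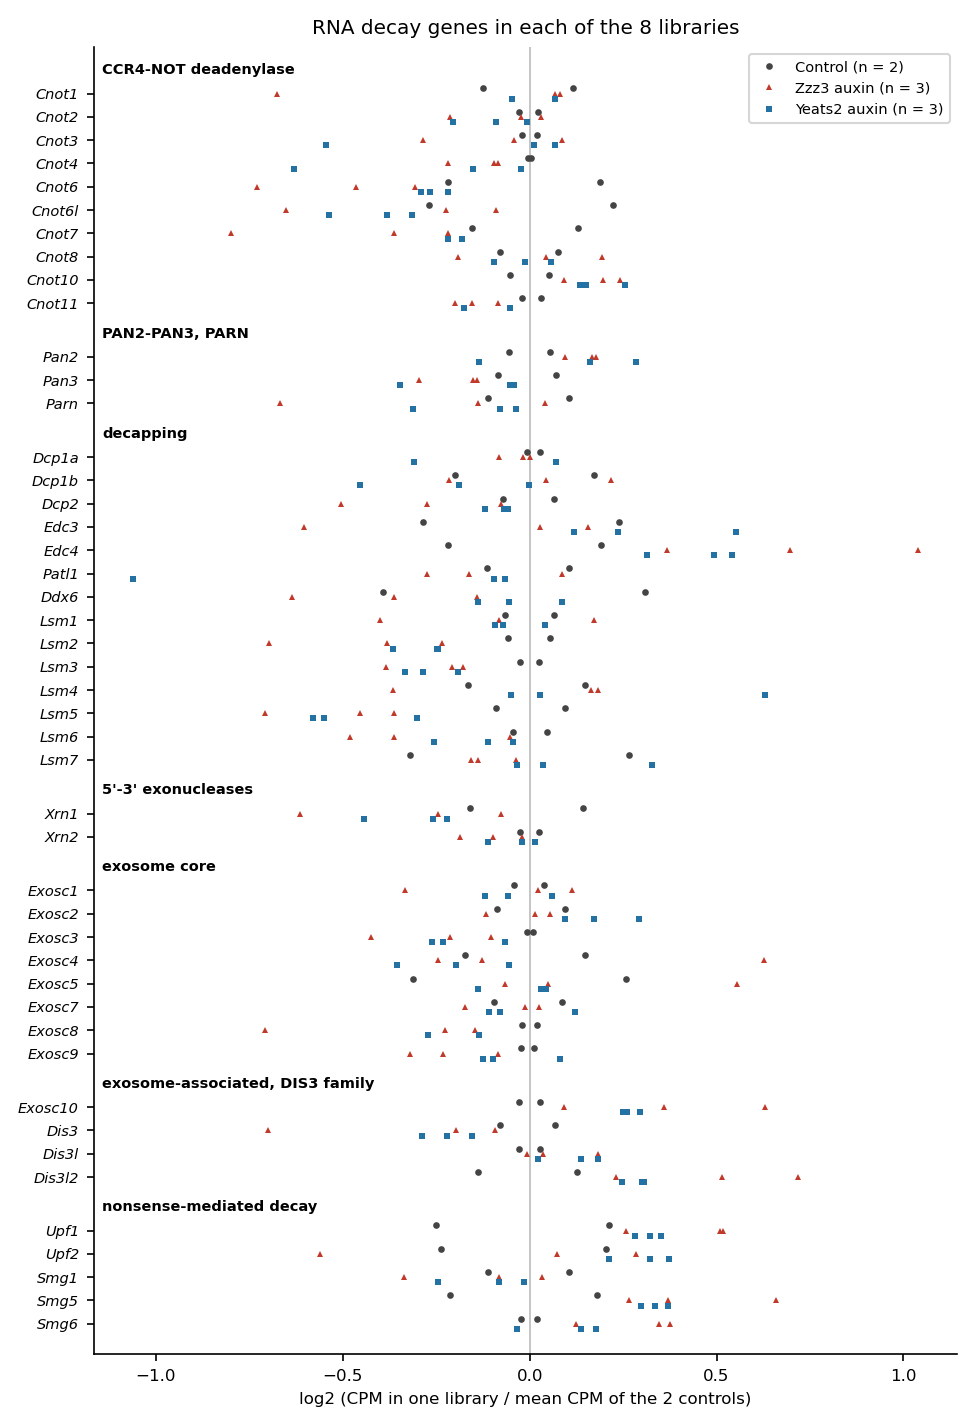
Level of each gene in each library relative to the mean of the 2 controls, on a log2 scale, grouped by role. *Edc4* and *Dis3l2* are among the genes right of 0, and *Lsm5*, *Lsm2* and *Lsm3* among those left of 0, in all 6 auxin libraries. Over all genes tested, libraries did not overlap with the same controls for 35.8% in Zzz3 auxin and 40.3% in Yeats2 auxin. How many of all genes had all 6 auxin libraries on the same side was not counted. The third Zzz3 auxin library is the lowest of the 8 for 22 genes.

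With YEATS2 degraded, no RNA decay gene was called either. The count was 0 of 46, against 0.445% of all genes tested (78 of 17532), and the smallest adjusted p was 0.244 (*Lsm5*). At an unadjusted p under 0.05 there were 4 of 46 (8.7%), against 14.6% of all genes. The median log2 FC was -0.05 (range -0.47 to 0.45), against -0.01 for all genes, and 15 genes had a value over 0, against 48.9% of all genes. The groups did not overlap for 19 genes (41.3%, against 40.3% of all genes). All 46 intervals lay within a 2-fold difference either way, against 66.4% of all genes. The median SE was again smaller for the members (0.149) than for all genes (0.219). DESeq2 also called 0 of the 46, with 4 at an unadjusted p under 0.05, against 434 calls over all genes and 13.6% of them at an unadjusted p under 0.05.

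The 4 genes at an unadjusted p under 0.05 were *Edc4* (log2 FC 0.45, interval 0.04 to 0.86, adjusted p = 0.296), *Smg5* (0.34, interval 0.01 to 0.66, adjusted p = 0.324), *Lsm5* (-0.47, interval -0.85 to -0.09) and *Lsm3* (-0.27, interval -0.52 to -0.02, adjusted p = 0.304). Both comparisons with control used the same 2 control libraries, so their values are not independent. By role, medians ran from -0.17 (5'-3' exonucleases), -0.14 (PAN2-PAN3 and PARN), -0.11 (CCR4-NOT), -0.07 (decapping) and -0.04 (exosome core) to 0.19 (exosome-associated and DIS3 family) and 0.31 (nonsense-mediated decay). *Dis3l2* (0.29, interval -0.07 to 0.64), *Exosc10* (0.27, interval -0.05 to 0.58) and *Upf1* (0.32, interval -0.01 to 0.64) had intervals that held 0, as had *Cnot6* (-0.26, interval -0.58 to 0.07) and *Cnot7* (-0.20, interval -0.55 to 0.15). *Cnot6l*, at 31.6, 28.4 and 33.1 CPM against 48.1 and 34.2 CPM in the controls, had the lowest value in CCR4-NOT, -0.41 (interval -0.82 to 0.00). Some genes turned on 1 library. The second Yeats2 auxin library had the lowest *Patl1* (21.6 CPM, with 42.2 and 43.1 in the other two) and the highest *Lsm4* (98.8 CPM, with 61.6 and 65) and *Edc3* (79.2 CPM, with 58.6 and 63.6) of all 8.

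**Figure D4:**
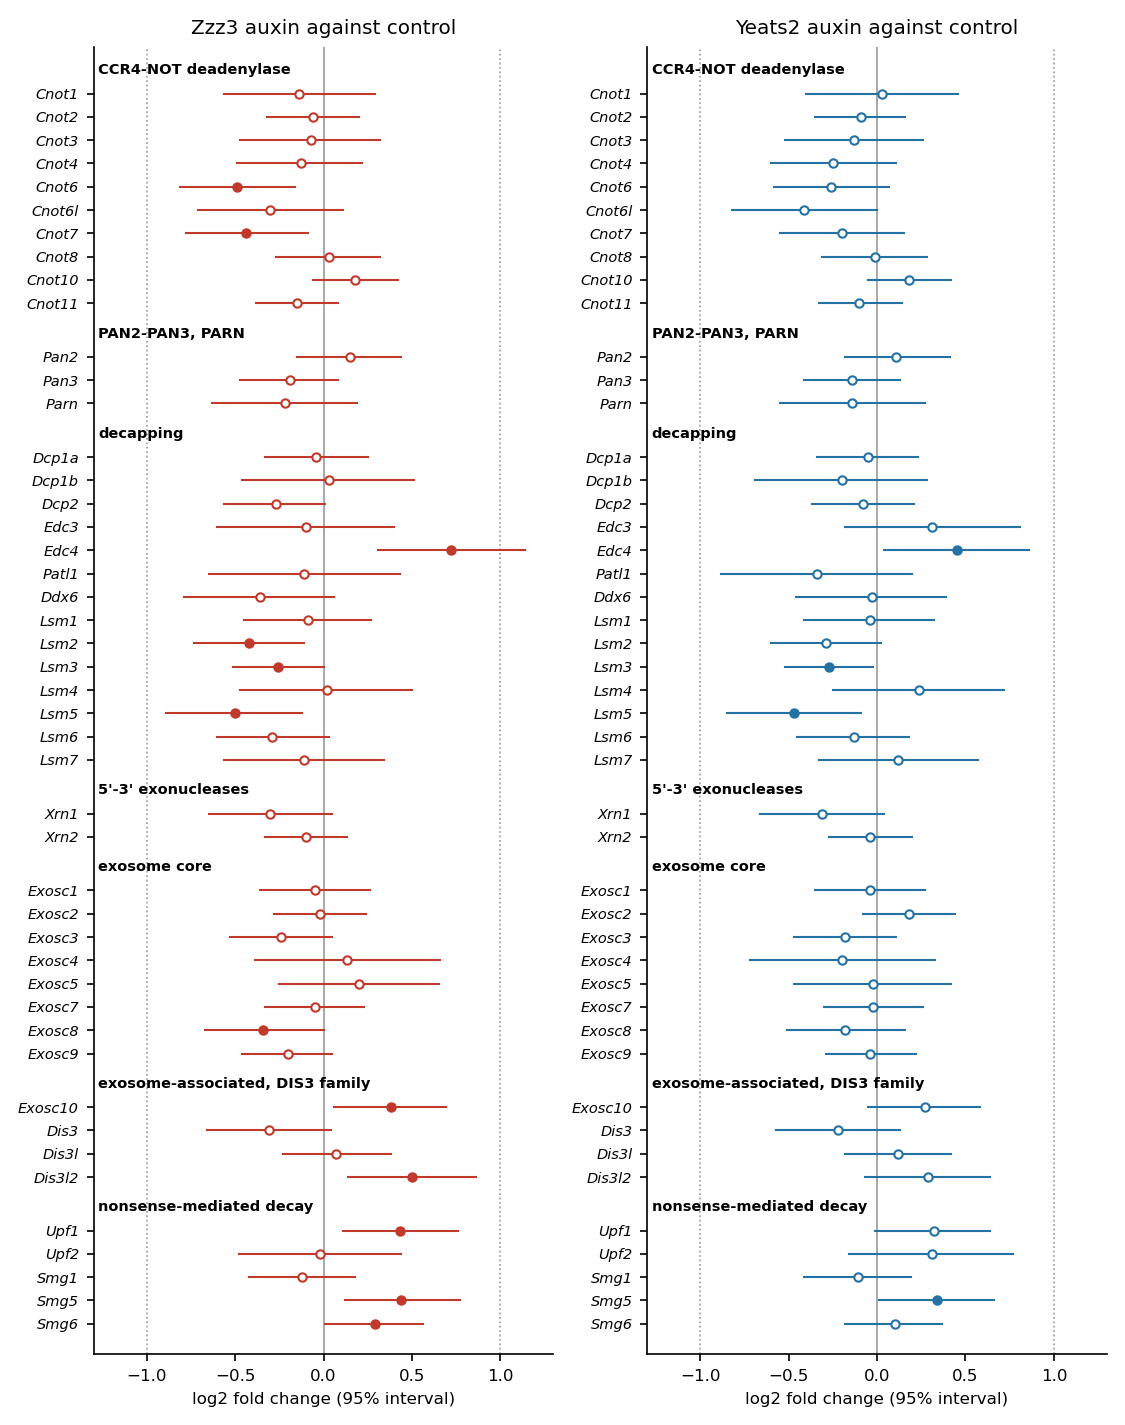
Log2 FC of each gene with its 95% interval in Zzz3 auxin (left) and Yeats2 auxin (right) against control, grouped by role, with dotted lines at a 2-fold difference. Filled points mark an unadjusted p under 0.05 (12 and 4 genes), no point has an adjusted p under 0.05, and only the interval of *Edc4* in Zzz3 auxin crosses a dotted line.

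When the depletions were set directly against each other, no RNA decay gene passed the test. In Yeats2 auxin against Zzz3 auxin, 0 of 46 genes were called and 0 had an unadjusted p under 0.05, against 0% called and 6.25% at an unadjusted p under 0.05 among all genes. The median log2 FC was 0.03, with a range of -0.33 (*Exosc4*) to 0.41 (*Edc3*, interval -0.03 to 0.86). All 46 intervals lay within a 2-fold difference, against 73.8% of all genes, with a median SE of 0.133 against 0.195. The libraries did not overlap for 5 genes (10.9%, against 11.1% of all genes), all of them higher in Yeats2 auxin (5.25% of all genes): *Cnot6* (0.23), *Cnot7* (0.24), *Ddx6* (0.33), *Lsm7* (0.23) and *Exosc2* (0.20). These values do not show that both depletions act alike, since the intervals reached a median of 0.29 to either side. DESeq2 likewise called 0 of the 46 and had 0 at an unadjusted p under 0.05, against 3 calls and 5.68% over all genes.

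The direction of the fold changes varied with the base composition of the transcripts. Pearson's r of log2 FC with the GC content of the longest transcript was taken across the 46 genes. These share their libraries and so are not independent replicates. This r was 0.63 in Zzz3 auxin and 0.60 in Yeats2 auxin, against 0.37 and 0.31 over all genes. Log2 FC spread more widely over all genes (SD 0.53 and 0.47, against 0.27 and 0.22 for the 46), so these r are not like for like. In Zzz3 auxin, the 23 genes with over 47.2% GC had a median of 0.03 with 13 above 0, and the other 23 had a median of -0.19 with 1 above 0, *Dis3l2*. The libraries that stood apart in GC over all genes did so here too. Relative to the mean of the 8 libraries, GC-rich minus GC-poor members came to -0.32 in the first control and 0.26 in the third Zzz3 auxin library, and to -0.03 to 0.02 in the other 6. Without the first control, r was 0.43 and 0.27, and the genes at an unadjusted p under 0.05 numbered 2 (*Edc4* and *Lsm5*) and 1 (*Lsm5*), against 8.45% and 6.08% of all genes. Without the third Zzz3 auxin library, they numbered 10 in Zzz3 auxin, against 20.9% of all genes.

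When the trends of every library on GC and on the length of annotated exon were removed, r fell to 0.09 and 0.03. With this correction, 4 and 2 genes had an unadjusted p under 0.05 (16.3% and 12.9% of all genes). In Zzz3 auxin these were *Edc4*, *Dis3l2*, *Lsm2* and *Cnot6*, and in Yeats2 auxin *Dis3l2* and *Upf2*, which were not among the 4 without the correction. *Dis3l2*, at 39.9% GC, went from 0.50 to 0.70 in Zzz3 auxin (SE 0.20, adjusted p = 0.115, with 0.048 to 0.662 over the 14 alternatives) and from 0.29 to 0.45 in Yeats2 auxin. *Edc4*, at 55.5% GC, went from 0.72 to 0.49 (SE 0.14, adjusted p = 0.114), *Lsm2* from -0.42 to -0.34 and *Cnot6* from -0.49 to -0.26. In Zzz3 auxin, *Upf1* came to 0.11, *Smg5* to 0.16 and *Lsm5* to -0.19. *Upf2* went from 0.31 to 0.44 in Yeats2 auxin.

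**Figure D5:**
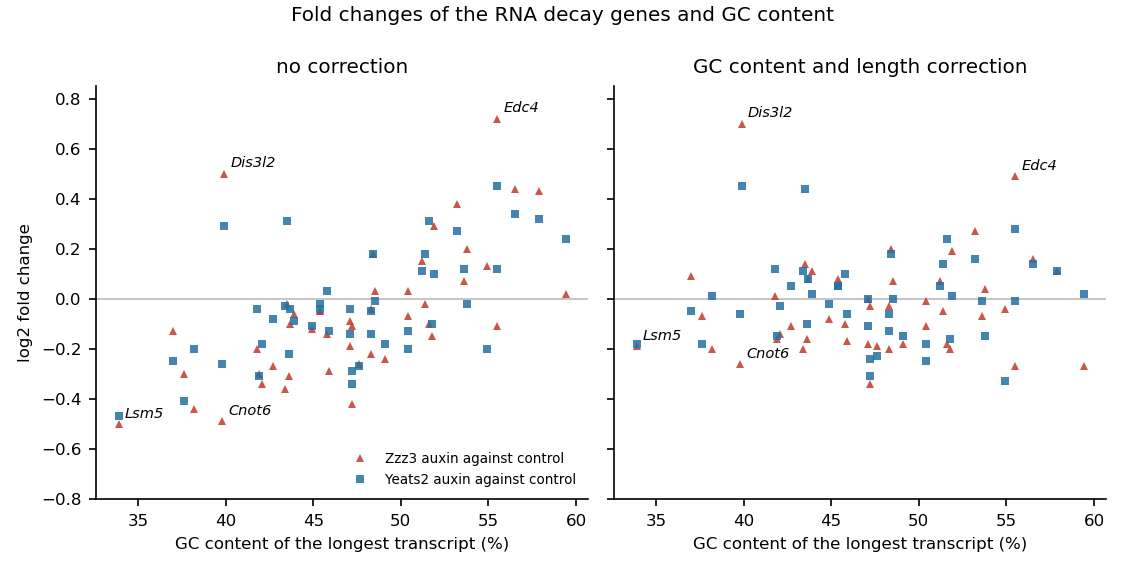
Log2 FC of the 46 genes against the GC content of their longest transcript, without (left) and with (right) removal of the GC and length trends of every library, for both comparisons with control. The slope on the left (r = 0.63 and 0.60) is nearly gone on the right (0.09 and 0.03), where *Dis3l2* and *Edc4* still have the highest Zzz3 auxin values.

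Genes next to this core were looked up from a list of 58 cofactors, recruiters and remaining subunits, of which 57 could be tested. The list was chosen for function, but with earlier results of these data known, so its share of calls is not independent of them. The exosome subunit *Exosc6* was listed at 0 reads in all 8 libraries. This alone does not show that the gene is silent, and whether its reads were left unassigned in counting was not tested. In Zzz3 auxin, 2 of 57 were called (3.51%), 1 higher and 1 lower, and in Yeats2 auxin 1 was called (1.75%), against 0.753% and 0.445% of all genes. At an unadjusted p under 0.05 there were 17 and 8, against 21.7% and 14.6% of all genes. *Lsm8*, which replaces LSM1 in the nuclear form of the ring, stood at 126 and 119 CPM in the controls, 63, 84.6 and 75.7 CPM in Zzz3 auxin, and 83.7, 95.4 and 77.3 CPM in Yeats2 auxin. It fell in Zzz3 auxin by 0.72 on the log2 scale (SE 0.14, adjusted p = 0.0466), and had a value of -0.52 in Yeats2 auxin (adjusted p = 0.145). Its Zzz3 auxin value was -0.47 with the GC correction and -0.81 to -0.47 over the 14 alternatives, of which 5 called it (adjusted p 0.000185 to 0.497). The call was lost with the GC correction (adjusted p = 0.13), the replicate block (0.0843) and only the compared groups in the fit (0.188), and without either control, the first Zzz3 auxin library or any Yeats2 auxin library. *Btg2*, a recruiter of the CAF1-type deadenylases, was the gene that rose in both, with a log2 FC of 0.68 (adjusted p = 0.0402) and 0.70 (adjusted p = 0.0419). It was called under 6 of the 14 alternatives in Zzz3 auxin and 8 in Yeats2 auxin, with a log2 FC of 0.61 to 0.77 throughout. Its call in Zzz3 auxin was lost without the same libraries as that of *Lsm8* (adjusted p up to 0.473), and with only the compared groups (0.178). In Yeats2 auxin it was lost without either control or any Yeats2 auxin library (up to 0.497). The replicate block ended both calls (0.0627 and 0.0688). The median of the 57 was -0.15 in Zzz3 auxin and -0.08 in Yeats2 auxin. In Yeats2 auxin against Zzz3 auxin, 0 of the 57 were called and 4 had an unadjusted p under 0.05, against 6.25% of all genes.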

How the data were processed

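The deposited values are raw counts of reads per gene. The authors trimmed reads, discarded those from ribosomal RNA, aligned the remainder to mm10 by STAR and ran HTSeq in union mode on uniquely aligned reads, so reads shared by overlapping genes were left unassigned. The molecule is labelled as poly(A) RNA, but the library protocol starts from total RNA and depletes ribosomal RNA. In the counts, 19.1% of genes lying wholly inside exons of the opposite strand had at least 10 reads, against 0.293% inside exons of the same strand, so strands were counted separately.

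The 46 genes, the list of 58 further decay genes and the tests were chosen with earlier results of these data known. GENCODE annotation of GRCm38 gave symbols, exon lengths and positions for 55141 of 55401 genes. Counts were analyzed in R 4.3.3 with edgeR 4.0.16: filterByExpr, TMM, and a robust quasi-likelihood fit of all 8 libraries, with two-sided p adjusted by Benjamini and Hochberg over 17532 genes in each of 3 comparisons. Genes with an adjusted p under 0.05 were called. Members named with every library's CPM were the 12 with the smallest unadjusted p over both comparisons with control, and the 3 highest and 3 lowest per length. The paralog families were named as well, by their shares. The other members named were singled out after their values were seen. Alternatives were DESeq2 1.42.0, median-of-ratios size factors, no filter, only the compared groups, the replicate number as a block, a lowess correction (span 0.3) for GC content and length, each library left out, and the longest transcript as gene length. The pipeline was tested on simulated data. The methods name independent cultures for the labeling experiments and like conditions for the RNA-seq of ATAC lines, but do not say of these libraries that they came from separate cultures, so p-values may measure only the spread between these libraries, which may be technical. No pair of libraries within a group agreed within sampling noise. A pairing of the libraries by replicate number was not shown.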

Additional observations from a re-analysis of the deposited data

How the results depend on the processing

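No member was called in Yeats2 auxin against control or in Yeats2 auxin against Zzz3 auxin under any of the 14 alternatives run for each. In Zzz3 auxin against control, DESeq2 called 1 member (*Edc4*, 0.73), beside 1114 calls over all genes. A fit with no filter called 3 (*Edc4* 0.73, *Cnot6* -0.48, *Smg5* 0.45), beside 1542 over all genes. Leaving out each library gave 0 to 2 members. Without the second Zzz3 auxin library there were 2 (*Edc4* 0.88, *Dis3l2* 0.63), beside 841 calls over all genes. Without the third there was 1 (*Exosc10* 0.51), beside 293 over all genes. The members' median log2 FC ranged from -0.14 to -0.04 in Zzz3 auxin, -0.08 to -0.01 in Yeats2 auxin and 0.00 to 0.05 between them. Without the first control, *Upf1* went from 0.43 to 0.22, *Smg5* from 0.44 to 0.26, *Cnot6* from -0.49 to -0.27 and *Cnot7* from -0.44 to -0.29 in Zzz3 auxin. In Yeats2 auxin, *Cnot6* went from -0.26 to -0.04, *Cnot7* from -0.20 to -0.05, *Upf1* from 0.32 to 0.11, *Smg5* from 0.34 to 0.15, *Edc4* from 0.45 to 0.26 and *Dis3l2* from 0.29 to 0.16. Without the third Zzz3 auxin library, *Cnot7* and *Lsm2* came to -0.28 and -0.29 in Zzz3 auxin. With the GC and length correction, *Cnot7* in Yeats2 auxin went from -0.20 to 0.01. The cause of these shifts was not tested.

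The same-numbered libraries did not deviate together (r from -0.338 to 0.305), so a pairing by number was not shown. Deviations were taken from the group mean, so those of the 2 controls mirror each other. This check therefore cannot exclude a pairing. With the replicate block, 0, 0 and 0 members were called, and the members' medians were -0.07, -0.05 and 0.03. The block moved the calls over all genes from 132, 78 and 0 to 42, 32 and 0, and ended the calls of *Lsm8* in Zzz3 auxin and of *Btg2* in both comparisons with control (adjusted p = 0.0843, 0.0627 and 0.0688, edgeR).

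Calls over all genes in the 3 comparisons depended on the fit. They were 1114, 434 and 3 with DESeq2, 1542, 553 and 117 with no filter, 0, 454 and 0 with only the compared groups, and 184, 141 and 0 with the GC and length correction. Leaving out 1 library gave 0 to 841, 0 to 217 and 0 to 1. With the longest transcript as length, the control shares were 88.6% for *Cnot6*, 11.4% for *Cnot6l*, 9.77% for *Xrn1* and 90.2% for *Xrn2*. By that length, *Cnot1* (128 CPM per kb) came ahead of *Xrn2* (121) and *Dcp2* (101), and *Cnot6l* (4.81) took the place of *Dis3l* among the 3 lowest.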
